A study of Mus musculus with 12 samples.

Results

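Amino acid transporters of the families Slc1, Slc3, Slc6, Slc7, Slc36, Slc38 and Slc43 were examined in cultured mouse prostate stem cells. All gene symbols on the array that begin with the name of one of these families were taken, which gave 58 of the 19031 named genes. Of these, 57 are transporters or their partner subunit, and 1, Slc7a6os, matches by its symbol alone: it is a neighbour of Slc7a6 with an unrelated product and is described apart. The cells came from prostate tissue of C57Bl/6 mice and were grown under stem cell conditions in an adherent monolayer or in spheroids, rounded clusters that do not spread on the dish. There were 3 cultures (adherent mouse 1, adherent mouse 2 and spheroid mouse 1), and for each one 3 replicate Illumina arrays and 1 array of the pooled replicates were run, 12 arrays in all. Nothing in the labels ties the replicates to separate dishes, so a p-value here reflects array-to-array spread alone, which may be technical. Spheroids of mouse 1 alone were measured, so the spheroid condition rests on 1 mouse.

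Amino acids cross membranes on carriers with overlapping substrates. Slc1 carriers move acidic amino acids (the EAAT proteins) or small neutral ones (the ASCT proteins) with sodium, Slc6 carriers move glycine, taurine, creatine, neurotransmitters or neutral amino acids with sodium and chloride, and Slc38 carriers move glutamine and other small neutral amino acids. Slc7 holds cationic amino acid carriers that work alone and light chains, many of which are joined to a heavy chain encoded by Slc3a2. Slc36 and Slc43 hold proton-coupled carriers and sodium-independent carriers of large neutral amino acids. Scarcity of amino acids is known to act on many of these genes through the transcription factor ATF4, and carriers of the lysosome report amino acid supply to the growth-controlling kinase complex mTORC1.

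The arrays were alike in the share of probes detected (43.1% to 49.1%), but the signal above which the brightest 10% of probes lay was 3.10 to 3.25 times background on the spheroid replicate arrays and 3.83 to 4.74 times on the adherent ones. Log2 values correlated across genes at 0.975 to 0.994 within adherent mouse 2, where replicate 1 stood apart from the other two arrays, and at 0.989 or more within the other cultures. All 5 basal prostate epithelium markers (Krt5, Krt14, Krt15, Trp63 and Itga6) were detected on every array, and at least 3 of 4 luminal markers were detected on each, with Pbsn below the filter. The summed level of the basal markers was 31760 to 37240 on adherent arrays and 47210 to 49330 on spheroid arrays. Krt15 was the 1 basal marker called between spheroid and adherent cultures (log2 difference 2.73). Trp63 went the other way, short of the fold required (-0.57, limma adjusted p = 4.31e-05). Several other cell markers moved with the culture as well. The summed level of fibroblast and smooth muscle markers (3 of 6 detected on each adherent array, with Col1a1 and Pdgfra undetected on every array) was 22200 to 28750 on adherent arrays and 1465 to 1529 on spheroid arrays. Of the 3 tested genes of this set, Acta2 (log2 difference -4.01) and Vim (-5.3) fell, while the collagen Col1a2 (-0.05) was not called. On adherent and spheroid arrays, the summed level of 2 proliferation markers was 4450 to 5340 and 454 to 489. That of 5 squamous epithelium markers (Krt1 was undetected on every adherent array) was 1479 to 2206 and 11460 to 12150. Of the 4 tested squamous markers 3 were called higher, while Ivl went the other way (-0.56, limma adjusted p = 0.00287). The summed level of the luminal markers was 6061 to 7598 on adherent and 3086 to 3345 on spheroid arrays. Krt18 differed by -1.42 and Krt8 by -0.96, while Cd24a differed by 0.41. The summed level of 4 neuroendocrine and neuron markers was 136 to 294 on adherent and 37.8 to 51.1 on spheroid arrays. Of these 4, Chga was undetected on every array, and Syp and Tubb3 on every adherent mouse 1 and spheroid array. Ncam1 was the only one tested (log2 difference -2.16), so this fall is that of 1 gene. Summed levels of leukocyte and endothelial markers stayed between 13.7 and 46.0 on all arrays, near the background. The part of these differences in the transporter results was not tested, and in bulk RNA fewer cells of a type and less RNA per cell cannot be told apart.

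Of the 58 members, 27 were tested, meaning that some culture had a probe of the gene detected (detection p under 0.05) on each of its 3 replicate arrays. This was 46.6% of the members, against 53.1% of all named genes. By family, 5 of 7 Slc1 genes, 1 of 1 Slc3 gene, 5 of 19 Slc6 genes, 8 of 15 Slc7 genes (Slc7a6os included), 6 of 10 Slc38 genes, 2 of 3 Slc43 genes and 0 of 3 Slc36 genes were tested. The tested members were mostly dim. Their median log2 signal over the 9 replicate arrays was 5.03, against 7.26 for all 10112 tested genes, and 19 of the 27 had a mean below 6, where the signal lies near the background (70.4%, against 32.2% of all tested genes). Detection on all 9 arrays was reached by 12 of the 27 (44.4%, against 76.3%). Levels of different genes are read from different probes and were not compared as abundances.

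The other 31 members did not pass this filter. Among them, 11 were detected on no replicate array by any probe: Slc38a5, Slc38a11, Slc43a3, Slc6a3, Slc6a5, Slc6a13, Slc6a14, Slc6a18, Slc6a20b, Slc7a10 and Slc7a15. The dopamine transporter Slc6a3 and the glycine transporter Slc6a5 of neurons are in this group. The other 20 were detected on some arrays but never on all 3 of a culture: Slc1a2, Slc1a3, Slc36a1, Slc36a2, Slc36a3, Slc38a4, Slc38a8, Slc6a2, Slc6a4, Slc6a7, Slc6a11, Slc6a12, Slc6a17, Slc6a20a, Slc6a21, Slc7a4, Slc7a8, Slc7a9, Slc7a12 and Slc7a14. Absence of a signal is a limit of these probes and does not show that a transcript was missing.

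**Figure D1:**
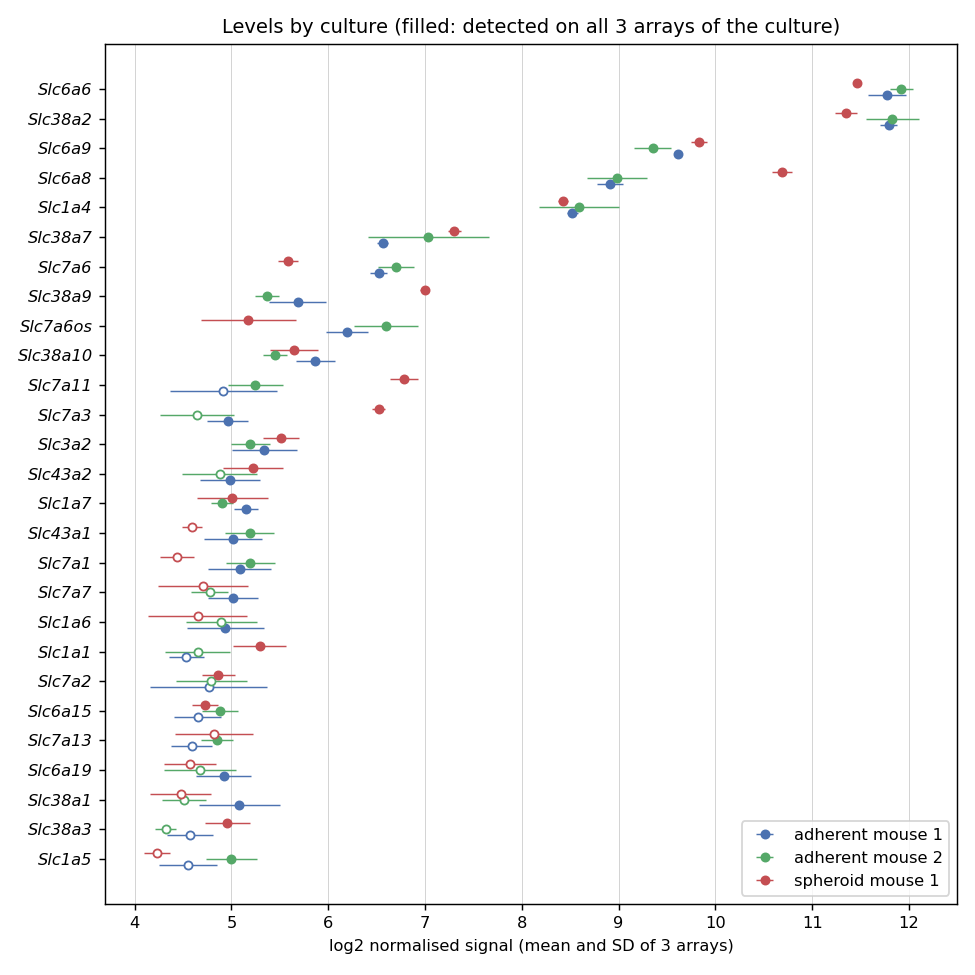
Mean log2 normalised signal of each of the 27 tested members in the 3 cultures (x axis, bars are the SD of 3 arrays), ordered by mean level on the y axis; filled points were detected on all 3 arrays of the culture. Slc6a6 and Slc38a2 lie above 11, Slc6a8 stands out in spheroids at 10.69, and 19 members have a mean over all arrays below 6.

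Whether growth as spheroids went with a different set of transporters was asked by comparing spheroid arrays with both adherent cultures. The creatine carrier Slc6a8, the cationic amino acid carrier Slc7a3, the cystine-glutamate exchanger light chain Slc7a11 and the lysosomal arginine sensor Slc38a9 rose in spheroids by 2.77- to 3.36-fold. The exchanger light chain Slc7a6 fell 2.04-fold and its neighbour Slc7a6os fell 2.33-fold. Calls required a limma p under 0.05 after Benjamini-Hochberg adjustment over all 10112 genes together with a fold of at least 2, and by this rule 6 of 27 tested members (22.2%) were called, 4 higher and 2 lower. Over all tested genes 26.5% were called, 13.1% higher and 13.4% lower, so the members' share was near that of the whole array. Of all calls, 49.5% were higher under quantile normalization, 27.3% when arrays were instead scaled to a common median. The median log2 difference was -0.02 over the tested members and -0.06 over all genes. Spheroid arrays lay wholly above or below all 6 adherent arrays for 10 of 27 members (37%), against 53.6% of all tested genes.

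In the Slc6 family, Slc6a8 carries creatine, a store of phosphate energy, into cells. Its log2 signal was 8.79, 9.05 and 8.89 on the adherent mouse 1 arrays, 8.63, 9.11 and 9.21 on the adherent mouse 2 arrays, and 10.81, 10.66 and 10.61 on the spheroid arrays. The lowest spheroid array lay well above the highest adherent array. The difference was 1.75 ± 0.12 (SE) on the log2 scale, or 3.36-fold (limma adjusted p = 3.03e-08), and it was 1.78 ± 0.14 against adherent mouse 1 and 1.71 ± 0.14 against adherent mouse 2. Slc6a8 is read by 1 probe, at signals clear of the background, and was the one called member to remain called under every processing alternative tried.

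The other tested Slc6 members were not called. The taurine carrier Slc6a6 was the brightest of all tested members, with log2 signals of 11.70, 11.99 and 11.61 (adherent mouse 1), 11.99, 11.98 and 11.78 (adherent mouse 2) and 11.47, 11.49 and 11.42 (spheroid). All spheroid arrays lay below all adherent arrays, but the fold was small: -0.38 ± 0.09 on the log2 scale (limma adjusted p = 0.00145). A second, dimmer Slc6a6 probe gave -1.30 (limma adjusted p = 0.000407), which would have been called, so the probes of this gene share a direction but not a size. The glycine carrier Slc6a9 (GlyT1) had log2 signals of 9.61 on each adherent mouse 1 array, 9.57, 9.20 and 9.29 in adherent mouse 2, and 9.83, 9.76 and 9.91 in spheroids. Its spheroid arrays were the highest under quantile normalization, by 0.35 ± 0.09 (limma adjusted p = 0.00458), but scaling to a common median turned the sign (-0.16, limma adjusted p = 0.13), so no direction is given for Slc6a9. The neutral amino acid carriers Slc6a15 and Slc6a19, with differences of -0.04 and -0.22, stayed near the background in all cultures.

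Among the Slc7 carriers, Slc7a3 (CAT3) takes up arginine and other cationic amino acids. Its log2 signal was 4.72, 5.12 and 5.04 in adherent mouse 1, 4.31, 4.57 and 5.06 in adherent mouse 2, and 6.53, 6.45 and 6.58 in spheroids. The spheroid arrays clustered tightly above the others, and the probe was detected on 3, 1 and 3 arrays of these cultures. The difference of 1.72 ± 0.18 (limma adjusted p = 2.09e-06) corresponds to 3.29-fold. A second Slc7a3 probe did not pass the detection filter. Its widely expressed relative Slc7a1 (CAT1) showed the opposite order without being called: 5.22, 4.72 and 5.33, then 5.39, 5.28 and 4.91, against 4.32, 4.63 and 4.36 in spheroids. Slc7a1 was undetected on all 3 spheroid arrays, where its level is only a bound. Its adherent signal was higher by an estimated 1.54-fold or more (measured log2 difference -0.71 ± 0.19, limma adjusted p = 0.00465). The 95% interval of the measured difference was -1.11 to -0.30, and the pools differed by only -0.15. The third cationic carrier tested, Slc7a2 (CAT2), differed by 0.08 with a 95% interval of -0.45 to 0.62.

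Slc7a11 (xCT) is the light chain of the exchanger that brings in cystine for glutathione synthesis in return for glutamate. Its log2 signal was 4.67, 5.55 and 4.53 in adherent mouse 1, 4.99, 5.20 and 5.55 in adherent mouse 2 and 6.81, 6.62 and 6.91 in spheroids. The adherent arrays scattered widely and none reached the spheroid range. The difference was 1.70 ± 0.22, or 3.25-fold (limma adjusted p = 1.43e-05). Before any correction the probe read 135 to 181 on adherent arrays and 200 to 233 on spheroid arrays, close to a background of 127 to 143, so the fold depends on how the background is removed. A second Slc7a11 probe, detected on all 9 arrays at a lower level, gave a difference in the same direction of 0.47 (limma adjusted p = 0.024), below the fold required. Slc3a2, which encodes the heavy chain that xCT needs, differed by 0.24 with an interval of -0.15 to 0.64.

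Slc7a11 is a textbook target of ATF4, which binds composite elements of the sequence TGATGNAA in either orientation, and its promoter is shown because both of its matches lie close to the start. The RefSeq promoter table (GRCm38.p6) held sequences for 42 of the 58 members, 250 bases before to 50 after each start. Capitals mark matches to TGATGNAA or, on the other strand, TTNCATCA, and positions are counted from the start, with -1 the last base before it. The Slc7a11 stretch covers -200 to -1 at chr3:50443614-50443813 (minus strand), the Slc1a4 stretch -40 to 5 at chr11:20332709-20332753 (minus strand), and the Slc7a7 stretches -156 to -119 at chr14:54418063-54418100 and -16 to 10 at chr14:54417935-54417960 (minus strand).
Slc7a11: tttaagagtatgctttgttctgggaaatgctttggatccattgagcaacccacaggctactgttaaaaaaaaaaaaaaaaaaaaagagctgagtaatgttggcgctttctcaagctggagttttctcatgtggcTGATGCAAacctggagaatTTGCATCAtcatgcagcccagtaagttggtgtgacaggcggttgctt
Slc1a4: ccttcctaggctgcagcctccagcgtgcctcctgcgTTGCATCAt
Slc7a7, upstream: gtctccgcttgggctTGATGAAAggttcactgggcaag
Slc7a7, at the start: ttgggacctagaagcTGATGCAAcag
Slc7a11 held 2 matches, TGATGCAA at -66 to -59 and TTGCATCA at -47 to -40, in opposite orientations. A match was found in 4 of 42 members with a promoter (9.52%): Slc7a11, Slc1a4, Slc7a7 and the untested Slc6a21, against 4.51% of all 27025 genes in the table (3.97% of its 32851 promoters). Of the 42, Slc7a11 and Slc7a7 had 2 or more matches in 1 promoter (4.76%, against 0.0851% of genes); the Slc7a7 match at the start also lies at -243 to -236 of a second Slc7a7 promoter. Slc1a4 and Slc7a7 were not called, with differences of -0.13 and -0.19. Slc38a9, Slc7a6 and Slc7a6os held no match in this window, and the promoters of Slc6a8 and Slc7a3 were not analysed here. A match describes the letters present and is not evidence of binding.

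Slc7a6 (y+LAT2) exchanges cationic for neutral amino acids as a light chain of the Slc3a2 heavy chain. Its log2 signal was 6.48, 6.62 and 6.46 in adherent mouse 1, 6.88, 6.52 and 6.70 in adherent mouse 2 and 5.62, 5.46 and 5.66 in spheroids. The spheroid arrays lay below all adherent arrays. The difference was -1.03 ± 0.14 (limma adjusted p = 2.00e-05), just past the fold required. Against adherent mouse 1 it was -0.94 ± 0.16, short of that fold, and against adherent mouse 2 it was -1.12 ± 0.16. The call was lost without adherent mouse 2 replicate 1 (-0.98), without spheroid replicate 2 (-0.97) and with cyclic loess normalization (-0.87).

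Slc7a6os adjoins Slc7a6 on chromosome 8, on the opposite strand, with no annotated gene between them and no overlap in the RefSeq annotation. Its log2 signal was 5.97, 6.39 and 6.22 in adherent mouse 1, 6.98, 6.42 and 6.39 in adherent mouse 2 and 5.19, 4.68 and 5.65 in spheroids. The spheroid arrays were the lowest but spread widely. The difference was -1.22 ± 0.22 (limma adjusted p = 0.000231). A second probe, detected on all 9 arrays, gave -0.17 (limma adjusted p = 0.481), so the call rests on 1 of its probes, and without spheroid replicate 2 the called probe gave -0.97.

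The remaining Slc7 members, the y+LAT1 light chain Slc7a7 and Slc7a13, a carrier known from kidney, differed by -0.19 and 0.10 and were dim in every culture. Both had 95% intervals that include 0 (-0.65 to 0.27 and -0.32 to 0.52).

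**Figure D2:**
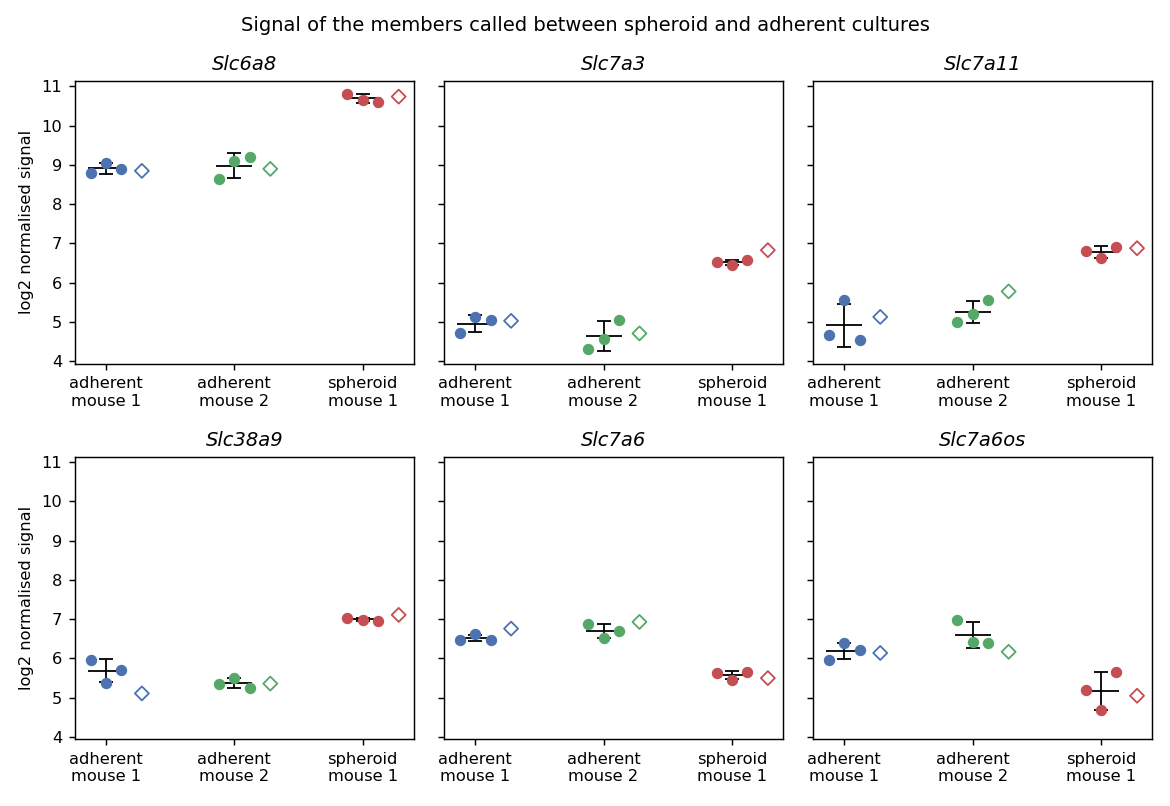
Log2 normalised signal (y axis) of the 6 called members on each replicate array (filled points), with mean and SD of 3 arrays (bars) and the pool array of each culture (open diamonds). In every panel the 3 spheroid arrays lie apart from all 6 adherent arrays, and the pools fall on the same side as the replicates.

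In the Slc38 family, Slc38a9 is a lysosomal membrane protein that senses arginine and lets amino acids out of the lysosome. Its log2 signal was 5.96, 5.38 and 5.71 in adherent mouse 1, 5.35, 5.50 and 5.26 in adherent mouse 2 and 7.04, 6.99 and 6.95 in spheroids. The spheroid arrays were nearly equal to each other and all above the highest adherent array. The difference was 1.47 ± 0.15, or 2.77-fold (limma adjusted p = 1.93e-06), and it was 1.31 ± 0.18 and 1.63 ± 0.18 against adherent mouse 1 and mouse 2. A second Slc38a9 probe, detected on 5 arrays, gave 0.88 (limma adjusted p = 0.00193), in the same direction but short of the fold.

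The other Slc38 members were not called. Slc38a2 (SNAT2), an inducible carrier of small neutral amino acids, was bright throughout: 11.87, 11.82 and 11.70, then 11.52, 12.01 and 11.97, against 11.46, 11.36 and 11.24 in spheroids. Its spheroid arrays lay just below all adherent arrays, with a difference of -0.46 ± 0.10 (limma adjusted p = 0.00147), and its further probes gave -0.32 and -0.60. Scaling to a common median moved the median of all genes by -0.29 and gave Slc38a2 -0.96 and Slc6a6 -0.88, so the sizes for these bright genes depend on the scaling. The lysosomal glutamine carrier Slc38a7 (SNAT7) differed by 0.50 ± 0.21 (limma adjusted p = 0.0495), and adherent mouse 2 alone spanned 6.34 to 7.55, a range that covers all 3 spheroid arrays. Its spheroid arrays (7.23 to 7.35) lay above those of adherent mouse 1 (6.53 to 6.63). The difference was 0.74 ± 0.24 against adherent mouse 1 (limma adjusted p = 0.0174) and 0.27 ± 0.24 against adherent mouse 2 (limma adjusted p = 0.356). Slc38a3 (SNAT3) was dim and undetected on all adherent mouse 2 arrays. On the replicate arrays it was higher in spheroids by an estimated 1.33-fold or more, on the average of both adherent cultures (measured log2 difference 0.51, limma adjusted p = 0.0186). Against adherent mouse 1 alone Slc38a3 differed by 0.38 (limma adjusted p = 0.112), and the pools gave the opposite sign (-0.51). Slc38a1 (SNAT1) and Slc38a10 differed by -0.32 and -0.01, with intervals that include 0.

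No Slc1, Slc3 or Slc43 member was called. The neutral amino acid exchanger Slc1a4 (ASCT1) was bright and much alike in all cultures, at 8.47 to 8.58 in adherent mouse 1, 8.12 to 8.91 in adherent mouse 2 and 8.37 to 8.46 in spheroids. Under the main setting the interval of its difference, -0.44 to 0.19, leaves out a change of 2-fold in either direction. Under other processing its difference ran to -0.62 against both adherent cultures and to -0.76 against adherent mouse 2, so its size also depends on the processing. Neither reached a fold of 2. The glutamine carrier Slc1a5 (ASCT2) was read by the 1 of its 5 probes that passed the filter. That probe was dim and undetected on all spheroid arrays. On the average of both adherent cultures it was higher there by an estimated 1.23-fold or more (measured difference -0.54, limma adjusted p = 0.0197). The difference was -0.32 against adherent mouse 1 (limma adjusted p = 0.217) and -0.76 against adherent mouse 2 (limma adjusted p = 0.00678). Another Slc1a5 probe, detected on 3 arrays, averaged 4.31, 4.44 and 4.55 in adherent mouse 1, adherent mouse 2 and spheroids, the opposite order. The glutamate carrier Slc1a1 (EAAT3) differed by 0.70 ± 0.19 (limma adjusted p = 0.00583), from 4.34 to 5.03 on adherent arrays to 4.97 to 5.48 on spheroid arrays, so the groups overlap. It was detected on 1, 1 and 3 arrays of the cultures, and so entered the test through the spheroid arrays alone. The glutamate carriers Slc1a6 and Slc1a7 gave -0.27 and -0.02. The sodium-independent carriers of large neutral amino acids Slc43a1 (LAT3) and Slc43a2 (LAT4) gave -0.51 (limma adjusted p = 0.0232) and 0.29 (limma adjusted p = 0.249).

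Altogether 15 of the 27 tested members passed the adjusted p alone and 9 of these had folds under 2, while 63.7% of all tested genes passed it. Those 9 were Slc1a1, Slc1a5, Slc38a2, Slc38a3, Slc38a7, Slc43a1, Slc6a6, Slc6a9 and Slc7a1. Of the 15, Slc1a1, Slc1a5 and Slc38a3 passed the detection filter only through the culture in which they were highest, so the count is no support for a difference. The greatest difference among the uncalled members was the -0.71 of Slc7a1.

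Against each adherent culture alone, which share the same spheroid arrays, the picture differed in 1 gene. Against adherent mouse 1, grown from the same mouse, 5 of 27 members were called (18.5%; 27.5% of all genes, 13.4% higher and 14.1% lower): Slc6a8, Slc7a3, Slc7a11 and Slc38a9 higher, and Slc7a6os lower. Against adherent mouse 2, 6 were called (22.2%; 26.6% of all genes, 13.1% higher and 13.5% lower), with Slc7a6 added. In both, the same 5 members were called in the same direction. Whether the spheroid differences themselves differ between the adherent cultures is the contrast of these cultures, in which no member was called.

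**Figure D3:**
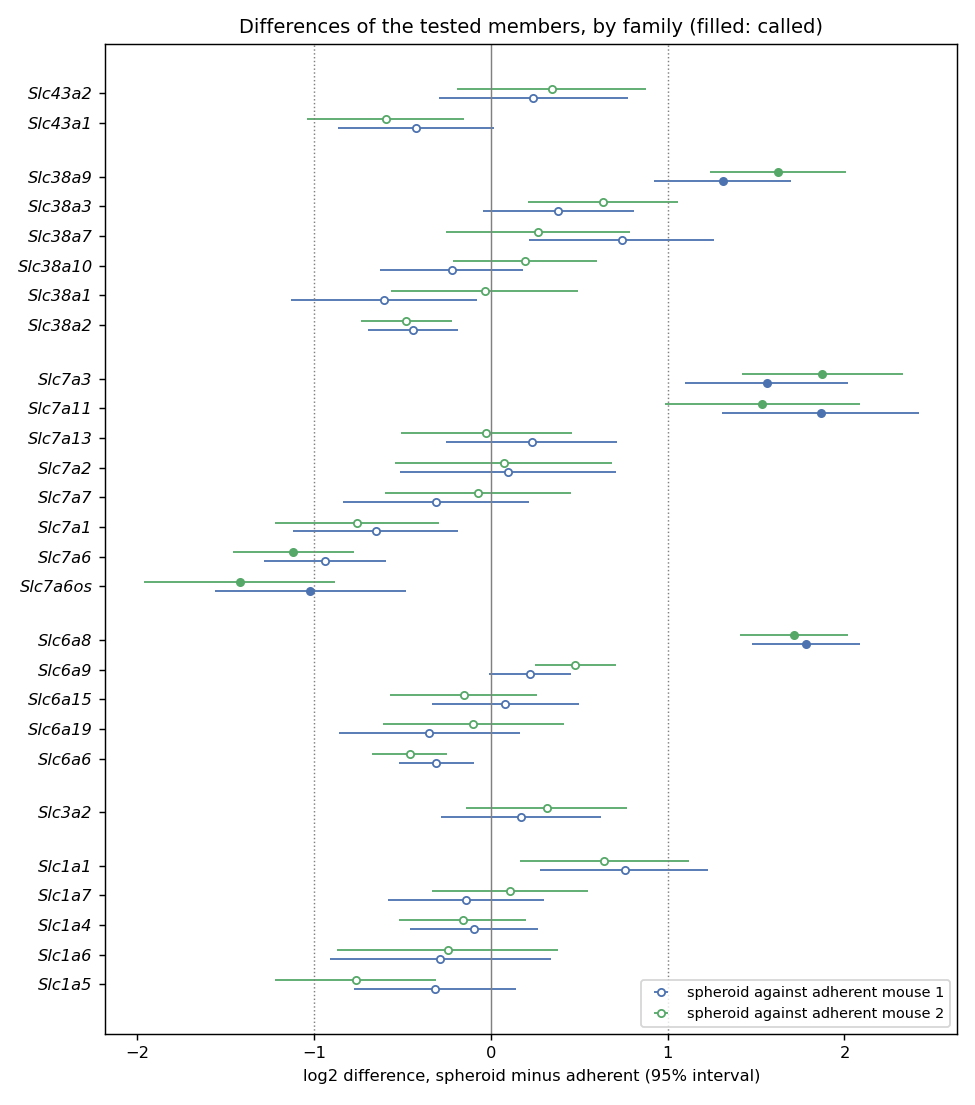
Log2 difference of spheroid against adherent mouse 1 (blue) and against adherent mouse 2 (green) on the x axis with 95% intervals, for the 27 tested members grouped by family on the y axis; filled points were called and dotted lines mark a fold of 2. Slc6a8, Slc7a3, Slc7a11 and Slc38a9 lie to the right of the upper line in both comparisons, and most other members lie between the lines.

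Between adherent mouse 2 and adherent mouse 1, 0 of 27 members were called, against 2.41% of all genes (1.39% higher and 1.02% lower). Differences ran from -0.57 (Slc38a1) to 0.47 (Slc38a7). In limma 3 members had an unadjusted p under 0.05, and the lowest adjusted p was 0.135 for Slc6a9 (-0.26). No alternative processing gave a call here.

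The pool arrays, which were normalized with the others but not tested, gave the same direction and a fold of at least 2 for all 6 called members. Slc6a8 differed by 1.87 on the pools, Slc7a3 by 1.96, Slc38a9 by 1.88, Slc7a11 by 1.43, Slc7a6 by -1.35 and Slc7a6os by -1.11. Since a pool holds RNA of the same replicates, this repeats the array measurement and not the culture. Of the 21 uncalled members, 9 had the opposite sign on the pools. Of 8 members with a mean level of 6 or more, 7 kept their sign, and of the 19 dimmer ones 11 did.

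Other genes of amino acid handling were counted by list, each chosen with earlier results of these data known, beside 26.5% called among all genes. Of 10 tested carriers of other families, 2 rose and 1 fell. Ctns, the lysosomal cystine exporter, rose by 1.23 ± 0.09 on the log2 scale (limma adjusted p = 4.03e-08), and Slc66a1, a lysosomal exporter of cationic amino acids, rose by 1.00 ± 0.16 (limma adjusted p = 8.83e-05), though against adherent mouse 2 alone it was not called. The lysosomal peptide and histidine carrier Slc15a4 (-0.01) was not called. The oligopeptide carrier Slc15a2 averaged 6.71 in adherent mouse 1, 4.59 in adherent mouse 2 and 4.22 in spheroids. Slc15a2 was undetected on all 3 spheroid arrays, so its fall there is a bound: at least 2.26-fold against both adherent cultures (limma adjusted p = 2.09e-06) and at least 4.72-fold against adherent mouse 1, with no call against adherent mouse 2 alone. It was also called lower in adherent mouse 2 against adherent mouse 1 (-2.13), where it was detected on 2 of 3 adherent mouse 2 arrays.

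Of 26 tested genes of amino acid sensing upstream of mTORC1, 5 rose and 1 fell (median log2 difference 0.32, against -0.06 for all genes). Risen genes were the leucine sensor family member Sesn1 (2.36), the CASTOR family member Castor2 (1.95), Flcn (1.83) and its partner Fnip1 (1.18), which act on Rag GTPases, and Tsc1 (1.31), an inhibitor of the mTORC1 activator Rheb. The GATOR2 subunit Seh1l fell by 1.43. Mtor (0.38), Rptor (-0.16) and Rheb (0.04) were not called.

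Of 15 tested genes of the amino acid response, 7 rose and 1 fell (median 0.89). Herpud1 rose by 2.89, Nupr1 by 2.26, Ddit3 (CHOP) by 2.00, Cebpg by 1.52, Atf5 by 1.47, the glutathione-degrading enzyme Chac1 by 1.44 and Cebpb by 1.11, all on the log2 scale, whereas the secreted factor Stc2 fell by 1.56. Several of these respond to endoplasmic reticulum stress as well. Atf4 itself (-0.49), asparagine synthetase Asns (-0.59) and Trib3 (0.89) were not called, though against adherent mouse 2 alone Trib3 was called higher (limma adjusted p = 5.31e-05). Atf4 and Asns differed by -0.82 and -0.87 against adherent mouse 1 and by -0.16 and -0.31 against adherent mouse 2. The list was assembled from known targets, and 7 of its 16 genes (43.8%) held the TGATGNAA match. Of these 7, Herpud1, Nupr1 and Chac1 rose, while Asns (-0.59), Atf3 (0.40), Trib3 (0.89) and Vldlr (0.75) were not called. Ddit3, Cebpg, Atf5 and Cebpb rose without a match in the window searched, 250 bases before to 50 after the start, and sequence further away was not searched. The stretches of the matched genes that rose are shown for comparison with the Slc7a11 promoter, at chr2:119351034-119351071 (Chac1, plus strand), chr8:94386302-94386339 (Herpud1, plus strand) and chr7:126625558-126625595 (Nupr1, minus strand).
Chac1, -208 to -171: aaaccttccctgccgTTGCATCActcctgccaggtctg
Herpud1, -127 to -90: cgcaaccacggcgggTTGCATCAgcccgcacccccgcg
Nupr1, -125 to -88: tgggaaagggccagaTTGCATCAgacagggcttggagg
Each holds TTGCATCA, the letters of the match at -47 to -40 in the Slc7a11 promoter. The same letters lie in the promoters of Atf3, Vldlr and Slc1a4, which were not called, and of Got1, which was not tested. Of these, Vldlr differed by 0.75 (limma adjusted p = 5.89e-05), short of the fold required. Atf3 was dim and was detected on 2 of 3 spheroid arrays. Whether these letters go with a rise was not tested.

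Of 23 tested enzymes of amino acid synthesis and use, 4 rose and 10 fell (median -0.59). Among those that fell, the log2 difference was -2.28 for Phgdh and -1.97 for Psat1 of serine synthesis, -2.00 and -1.94 for the serine hydroxymethyltransferases Shmt2 and Shmt1, and -2.34 for argininosuccinate synthetase Ass1. Aldh18a1 of proline synthesis, Cth of cysteine synthesis, Bcat2, Glud1 and Odc1 fell too, with differences of -1.63 to -1.02, of which Odc1 was not called against adherent mouse 1 alone. Arginase Arg1 rose by 2.33, Gpt2 by 1.48, the proline oxidase Prodh by 1.25 and glutathione synthetase Gss by 1.14. Of the enzymes that make the glutathione precursor from the cysteine that xCT supplies, Gclc (0.14) was not called. Its signal lay near the background, with detection on 1, 1 and 3 arrays of adherent mouse 1, adherent mouse 2 and spheroids, so this does not show equal expression. Gclm averaged 8.97 in adherent mouse 1, 7.90 in adherent mouse 2 and 8.45 in spheroids: it was not called in spheroids against either culture (-0.53 and 0.54), and it was called lower in adherent mouse 2 against adherent mouse 1 (-1.07, limma adjusted p = 0.00106).

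**Figure D4:**
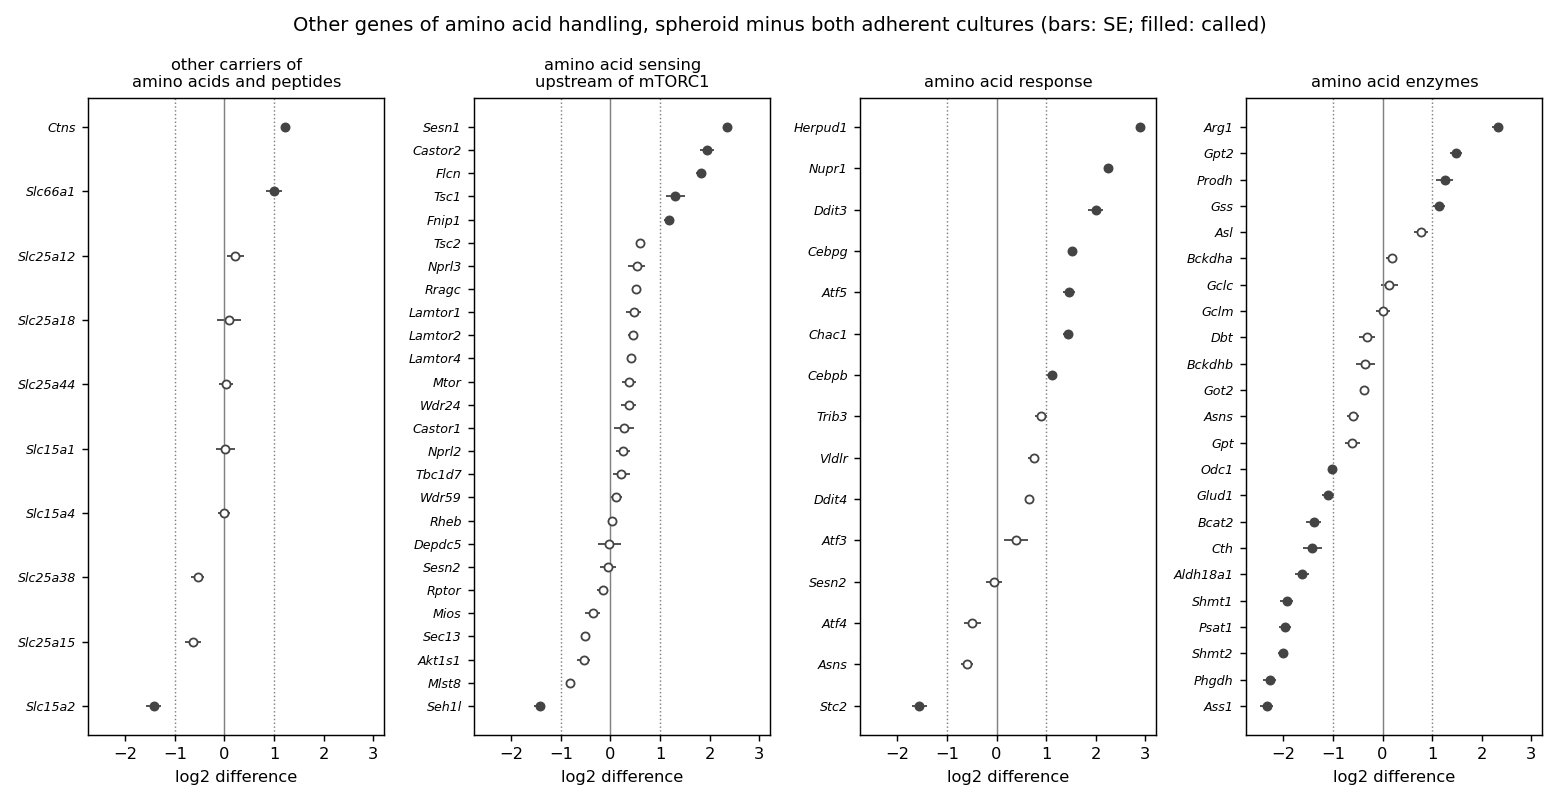
Log2 difference of spheroid against both adherent cultures (x axis, bars are the SE) for the tested genes of 4 lists of amino acid handling (y axis, 1 panel each); filled points were called and dotted lines mark a fold of 2. Most called genes of the amino acid response lie to the right (7 of 8) and most called enzymes to the left (10 of 14).

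The sizes for dim members depended on the background correction. Without it, the differences of Slc7a3, Slc7a11 and Slc38a9 shrank to 0.53, 0.58 and 0.58 and those of Slc7a6 and Slc7a6os to -0.38 and -0.39, and in the authors' normalized values they were 0.61, 0.69, 0.68, -0.47 and -0.47. Slc6a8 alone stayed past a fold of 2 under these settings, at 1.53 and 1.62. Against both adherent cultures the limma adjusted p stayed under the threshold for all 6 members in every alternative fitted, with the highest at 0.00227 for Slc7a6os, and no called direction reversed.

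**Figure D5:**
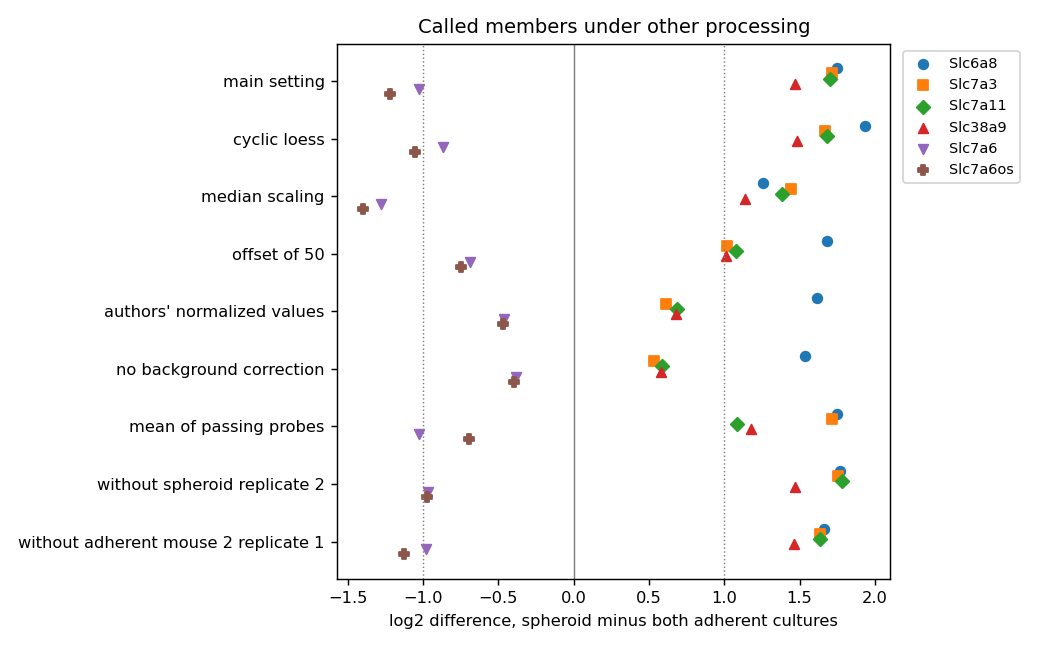
Log2 difference of spheroid against both adherent cultures (x axis) of the 6 called members under the main setting and 8 alternatives (y axis); dotted lines mark a fold of 2. All points keep their side of 0, and without background correction or in the authors' normalized values every member except Slc6a8 lies within a fold of 2.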

How the data were processed

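Per the file headers, the authors deposited non-normalized bead intensity on a linear scale, background included, for 45135 probes on 12 arrays. Each intensity has a deposited detection p-value, which sets the probe against negative controls. They also deposited a table of normalized intensity on a linear scale. Its scaling method and the scanner software are not given in the sources used here. A repeated header name leaves 2 arrays of adherent mouse 2 without a replicate number (in the authors' normalized table they match replicates 2 and 3, Spearman 0.99992 and 0.99984).

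Here limma 3.58.1 in R 4.3.3 estimated the background per array from the detection p (function nec), removed it by normexp, added an offset of 16, quantile-normalized all 12 arrays and took log2, which understates changes of dim genes. Probes detected (p under 0.05) on all 3 replicate arrays of a culture were kept (18950). Symbols came from the platform annotation (34773 probes with 1 symbol, 18 with several, 10344 with none). The brightest passing probe stood for each of 10112 genes. The linear model (lmFit, eBayes with trend) had 1 mean for each culture over 9 replicate arrays, with Benjamini-Hochberg adjustment over all genes. Intervals are 95%. Undetected cultures give bounds on the estimated fold, which leave out its sampling error. For the undetected side they take the lowest detected signal of each array, or the probe's value where greater. The number of arrays limits the precision. Members, lists and the motif were chosen with earlier results of these data known. All tested members are reported, by family. Alternatives covered normalization, background, offset, filter, probe choice, the authors' values, left-out arrays, a replicate block and the pools. Replicate numbers of mouse 1 cultures share only a number.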

Additional observations from a re-analysis of the deposited data

Results flagged for a closer look

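The astrocyte-type glutamate carrier Slc1a3 was not tested, since its probe was detected on 2 of 3 adherent mouse 1 arrays (log2 signals 4.74, 4.39 and 5.18) and on no array of the other cultures. On the pool array of adherent mouse 1, which entered no comparison, its detection p was 4.36e-05 (log2 signal 5.29), under a limit of 0.000321 shared over the 52 probes of untested members and 3 pools. The pools of adherent mouse 2 and spheroids read 4.36 and 4.23.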

How the results depend on the processing

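Every called member kept its direction under all alternatives run. The number of called members fell from 6 against both adherent cultures, 5 against adherent mouse 1 and 6 against adherent mouse 2 to 1 in each of these comparisons without background correction and again in the authors' normalized values, and it was 2 against adherent mouse 1 and 3 against adherent mouse 2 with an offset of 50; each of these settings leaves more background or a larger constant in the signal, which compresses folds. Over all genes the calls against both adherent cultures went from 2678 to 1282 without background correction and to 1475 in the authors' values. Median scaling (6, 6 and 8 called, adding Slc38a2 at -1.07 and Slc6a6 at -1.05 against adherent mouse 2) and cyclic loess (5, 4 and 5) stayed within 1.5 times the count. Leaving out 1 array gave 4 to 6 members against both adherent cultures, 4 to 5 against adherent mouse 1, 6 against adherent mouse 2 and 0 between the adherent cultures. With the replicate number as a block, 5 members were called against adherent mouse 1, as without it; same-numbered arrays did not deviate together (correlations 0.03, -0.04 and 0.07), and not every array matched its own number best. A fit of the mouse 1 arrays alone, added after seeing the data, also called 5. Signal over background limits the 19 members below a log2 level of 6, for which an uncalled difference does not show equal expression, and spheroids came from 1 mouse.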
